A study of Mus musculus with 6 samples.

Results

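Tal2, Insm1, Zfp608, Pax6, Pax3, Neurog2, Zfp521 and Nes are 8 genes associated with the first steps of neural development, out of 51912 gene rows in the count table. They were picked by symbol. Tal2, Insm1 and Zfp608 were included because they are among the largest increases between 24 h and 48 h, so the fold changes of the 8 genes are given here as a description, without a test. The cells were R1 mouse embryonic stem cells, an established line, grown in 2iLIF and then moved to N2B27 medium with 100 ng/ml FGF2. One group of 3 libraries was taken after 24 h and the other group of 3 after 48 h, all at the same FGF2 dose. Cells before the medium change or without FGF2 were not analysed here. Separate cultures are not named for the replicates, so the spread between them may be technical.

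When naive embryonic stem cells lose the inhibitors that hold them, they pass through a formative state and, in N2B27, many later take a neural fate. Neural fate is built by layers of transcription factors: progenitor factors such as Pax6 and the SoxB1 group come early, and proneural basic helix-loop-helix (bHLH) factors such as Neurog2 then drive cells out of division to become neurons. Insm1 acts downstream of proneural factors in neuronal and endocrine progenitors. Zfp521 is a zinc-finger protein reported to promote the passage of embryonic stem cells into neural progenitors, and Nes encodes nestin, an intermediate filament protein of neural progenitors and not a transcription regulator.

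Of the 8 genes, 6 passed the filter on low counts, and Pax3 and Neurog2 did not. The label of an early neural group is therefore met in part: Pax6 and Nes were measured at both times, while Neurog2, the proneural factor of the group, had 4 counts in all 6 libraries together. The pluripotent identity of the cells was checked on 11 marker genes, all of which passed the filter, with a summed level of 5330 to 5380 CPM (counts per 1000000 of the library total as scaled by TMM) at 24 h and 3690 to 3760 CPM at 48 h. Of these markers 7 fell and 4 rose, so all 11 were called, against 62.8% of all tested genes. Nanog (log2 change -1.99), Esrrb (-1.47), Zfp42 (-1.06) and Dppa5a (-0.70), abundant genes of naive cells, had the largest decreases in CPM of the 11, and Pou5f1 fell by 0.07. The 4 that rose were Fgf5 (4.63), Pou3f1 (3.79) and Otx2 (1.74), genes of the formative epiblast, and Utf1 (0.60). In bulk RNA, fewer cells that express a gene and less RNA of it per cell cannot be told apart.

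The promoters are shown because these genes went different ways in one culture: Tal2 was near 0 and became clearly measurable, Pax6 was measurable throughout, and Neurog2 stayed near 0. Each sequence runs 5′ to 3′ on the plus strand of GRCm38.p6 from RefSeq, from 250 bases before to 50 after an annotated start. Capitals mark any match to the motifs searched. RefSeq promoters of 300 bases were matched for 4 of the 8 genes, and Pax6 has an upstream and a downstream one.
Tal2, chr4:53779451-53779750: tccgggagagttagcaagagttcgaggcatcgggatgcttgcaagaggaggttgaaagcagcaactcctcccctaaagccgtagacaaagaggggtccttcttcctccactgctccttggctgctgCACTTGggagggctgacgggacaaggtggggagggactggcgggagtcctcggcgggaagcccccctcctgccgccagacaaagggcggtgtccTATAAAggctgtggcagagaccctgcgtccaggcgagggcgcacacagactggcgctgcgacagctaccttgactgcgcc
Pax6 upstream, chr2:105668646-105668945: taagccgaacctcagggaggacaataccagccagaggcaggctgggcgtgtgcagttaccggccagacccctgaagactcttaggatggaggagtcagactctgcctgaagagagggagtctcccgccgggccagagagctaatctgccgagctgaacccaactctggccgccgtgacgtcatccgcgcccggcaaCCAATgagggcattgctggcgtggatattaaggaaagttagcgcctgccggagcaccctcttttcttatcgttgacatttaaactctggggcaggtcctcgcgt
Pax6 downstream, chr2:105682213-105682512: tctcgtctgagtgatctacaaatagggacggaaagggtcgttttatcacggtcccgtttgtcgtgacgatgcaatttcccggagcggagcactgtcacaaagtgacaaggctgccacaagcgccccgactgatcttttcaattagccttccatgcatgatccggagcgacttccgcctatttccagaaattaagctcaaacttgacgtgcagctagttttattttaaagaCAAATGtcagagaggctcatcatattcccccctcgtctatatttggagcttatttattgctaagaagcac
Neurog2, chr3:127632886-127633185: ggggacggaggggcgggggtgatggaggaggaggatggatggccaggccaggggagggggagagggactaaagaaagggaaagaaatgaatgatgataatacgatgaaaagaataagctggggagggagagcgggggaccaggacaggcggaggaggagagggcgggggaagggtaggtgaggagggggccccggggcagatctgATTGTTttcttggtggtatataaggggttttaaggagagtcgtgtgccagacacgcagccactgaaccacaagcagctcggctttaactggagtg

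Motifs were searched by their letters on both strands. They were CANNTG, the E-box that bHLH factors bind, with its forms CAGATG (proneural factors) and CAGCTG (counted again as E-boxes), then TAATCC (homeodomain factors of the Otx kind) and ATTGTT (core of Sox sites). Also searched were CTTTGAT (TCF and LEF factors), TATAAA (the TATA box) and finally CCAAT (the CCAAT box). The Tal2 window holds 1 E-box, cacttg, starting 124 bases before the start, and 1 TATAAA starting 30 bases before it. Of 32851 RefSeq promoters of the same length, 72.3% hold an E-box and 13.6% hold TATAAA. The downstream Pax6 window holds 1 E-box 20 bases before its start, and the upstream one holds none of the motifs but a CCAAT, which 37.4% of promoters hold. The Neurog2 window holds 1 ATTGTT, found in 10.7% of promoters, and no E-box. The Tal2 window has 16 CpG dinucleotides and a GC content of 62.7%, and the Neurog2 window has 10 CpG and 58%, against medians of 7 CpG and 52.7% over all promoters. These matches describe the letters of the windows only.

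Among the bHLH genes, Tal2 was near 0 at 24 h and clearly measurable at 48 h. Tal2 (ENSMUSG00000028417, GRCm38 chromosome 4, 53779705 to 53788712, plus strand, 2 exons) encodes a bHLH factor known from midbrain GABAergic neurons and from T-cell leukaemia. Its counts were 5, 6 and 4 in the 24 h libraries and 342, 349 and 308 in the 48 h libraries. Every 48 h library was far above every 24 h library. The level went from a mean of 0.238 ± 0.0627 CPM to one of 15.2 ± 1.13 CPM (SD, n = 3), and the fitted log2 change was 5.98 ± 0.17 (standard error). Since the 24 h total is 15 counts, with an exact 95% Poisson interval of 8.4 to 24.7, the ratio of the summed counts per effective depth is known only to within its counting interval of 39.1 to 116, around 64.9. Intervals of this kind cover counting error only.

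Neurog2 (ENSMUSG00000027967, chromosome 3, 127633135 to 127635631, plus strand) encodes neurogenin 2, a proneural bHLH factor. It had 0, 0 and 1 counts at 24 h and 0, 3 and 0 counts at 48 h. Of the 6 libraries, 4 were at 0 and the groups overlapped. Both sums lie at or under a floor of 3 counts per group, equal to 0.0468 CPM at 24 h and 0.0456 CPM at 48 h, so no fold is given and no difference was detectable at this depth.

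The zinc-finger genes went in both directions. Insm1 (ENSMUSG00000068154, chromosome 2, 146221921 to 146225020, plus strand, a single-exon gene) encodes a transcriptional repressor that acts in neuroendocrine and neuronal progenitors. Its counts were 13, 17 and 12 at 24 h and 391, 372 and 380 at 48 h. The 48 h values lay close together, with a coefficient of variation of 3.1%, and did not meet the 24 h values. Its level went from 0.663 ± 0.161 to 17.4 ± 0.538 CPM (SD, n = 3), with a fitted log2 change of 4.72 ± 0.14 (standard error).

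Zfp608 (ENSMUSG00000052713, chromosome 18, 54888048 to 54992555, minus strand) encodes a zinc-finger protein expressed in developing brain and thymus. It had 13, 12 and 10 counts at 24 h and 333, 352 and 356 counts at 48 h. The groups were again wide apart. The level was 0.554 ± 0.117 CPM at 24 h and 15.8 ± 0.431 CPM at 48 h (SD, n = 3), with a fitted log2 change of 4.84 ± 0.14 (standard error). Its exons share 79 bases with Gm26742, a non-coding gene on the opposite strand, which had 0 counts in every library.

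Zfp521 (ENSMUSG00000024420, chromosome 18, 13687013 to 13972787, minus strand) had 180, 175 and 211 counts at 24 h and 118, 96 and 107 at 48 h. It was lower in every 48 h library than in any 24 h library, also in CPM. Its level went from 8.83 ± 0.252 to 4.88 ± 0.524 CPM (SD, n = 3), with a fitted log2 change of -0.86 ± 0.10 (standard error). On the linear scale it was 1.81-fold lower at 48 h.

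Of the paired-box genes, Pax6 was measurable at both times and Pax3 at neither. Pax6 (ENSMUSG00000027168, chromosome 2, 105668900 to 105697364, plus strand) encodes a paired-domain and homeodomain factor of eye, forebrain and neural progenitors. Its counts were 238, 252 and 248 at 24 h and 757, 756 and 718 at 48 h. The groups did not overlap, and the spread within each was small beside the gap between them. The level went from 11.6 ± 0.944 to 33.9 ± 1.34 CPM (SD, n = 3), with a fitted log2 change of 1.56 ± 0.07 (standard error), which is 2.94-fold. As a difference in CPM, which is not corrected for length, 22.4 for Pax6 was larger than the 15.0, 16.7 and 15.3 for Tal2, Insm1 and Zfp608. Pax6 has the longest merged exons of these genes. Per kb of merged exons it went from 0.99 to 2.90 CPM and Zfp608 from 0.065 to 1.86. By that measure Tal2, from 0.08 to 5.11, and Insm1, from 0.214 to 5.61, had larger differences than Pax6. Tal2, Insm1 and Zfp608 began near 0, and their ratios were larger.

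Pax3 (ENSMUSG00000004872, chromosome 1, 78101267 to 78197134, minus strand) encodes a paired-box factor of dorsal neural tube, neural crest and muscle progenitors. Its counts were 5, 0 and 5 at 24 h and 1, 0 and 0 at 48 h. Replicate 2 was at 0 at both times, so the groups overlapped. The summed counts of 10 and 1 give a ratio of 24 h over 48 h of 10.3 with a counting interval of 1.46 to 446, which leaves the size of any difference almost undetermined.

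Nes (ENSMUSG00000004891, chromosome 3, 87971078 to 87980451, plus strand) had 539, 560 and 625 counts at 24 h and 571, 477 and 500 at 48 h. In CPM the values were 27.0, 27.3 and 26.5 at 24 h and 26.3, 21.8 and 22.6 at 48 h. Replicate 1 of 48 h was thus just under the lowest 24 h library, and the other two were clearly lower. The fitted log2 fold change was -0.19 ± 0.06 (standard error), the smallest of the 6 genes. Without replicate 2 of 48 h it was -0.14 and without replicate 3 of 48 h it was -0.16, and in both cases, as with DESeq2, the gene was no longer called in the fit across all genes.

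**Figure D1:**
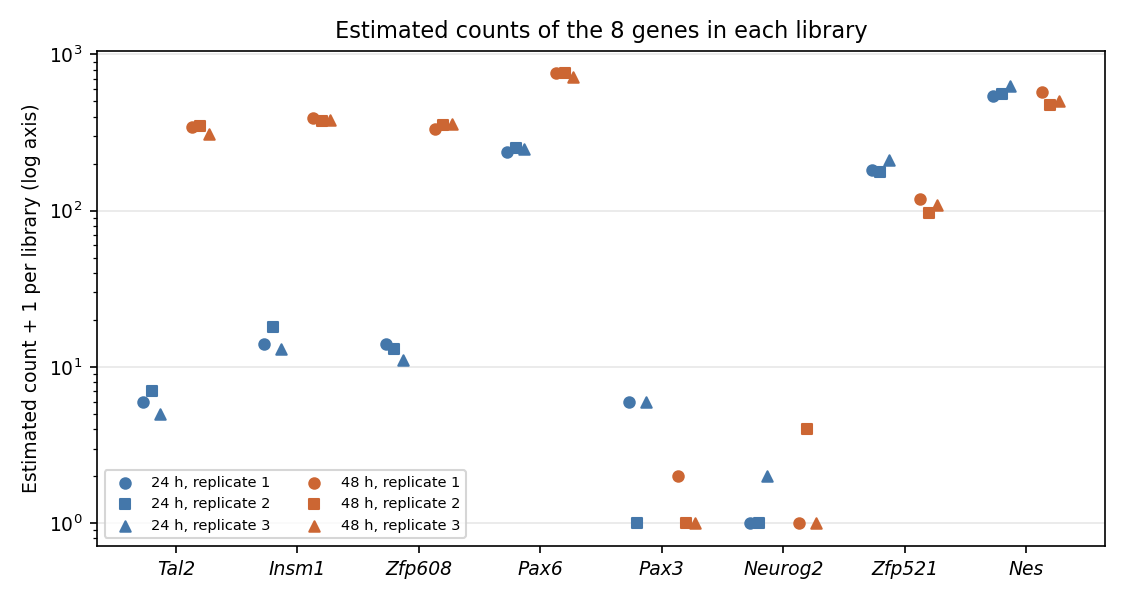
Estimated count plus 1 of each gene (log axis) in each of the 6 libraries, with 24 h in blue, 48 h in orange and a marker shape per replicate. Tal2, Insm1 and Zfp608 lie between 4 and 17 counts at 24 h and between 308 and 391 at 48 h, while Pax3 and Neurog2 stay at 5 counts or fewer.

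Set among all genes, 4 of the 6 genes lay on the rising side of the range of change. Zfp521 lay on its falling side and Nes nearer its centre. In edgeR's quasi-likelihood fit, 62.8% of 14889 tested genes were called changed at an adjusted p under 0.05, 30.9% higher and 31.9% lower. Higher genes made up 49.2% of those called, and 39.9% with library size as the only scaling. The same fit called 4 of the 6 genes higher and 2 lower. No overlap between the 24 h and 48 h values was seen for 66.9% of tested genes and for all 6 of these genes. Nothing is read from either count, because this contrast chose the genes. A log2 fold change of 4 or more was reached by 26 tested genes (0.175%), and Tal2, Zfp608 and Insm1 are 3 of them. Larger fold changes were fitted for 6 genes above Tal2, 11 above Zfp608, 13 above Insm1 and 315 above Pax6. Smaller (more negative) ones than that of Zfp521 were fitted for 1273 genes.

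**Figure D2:**
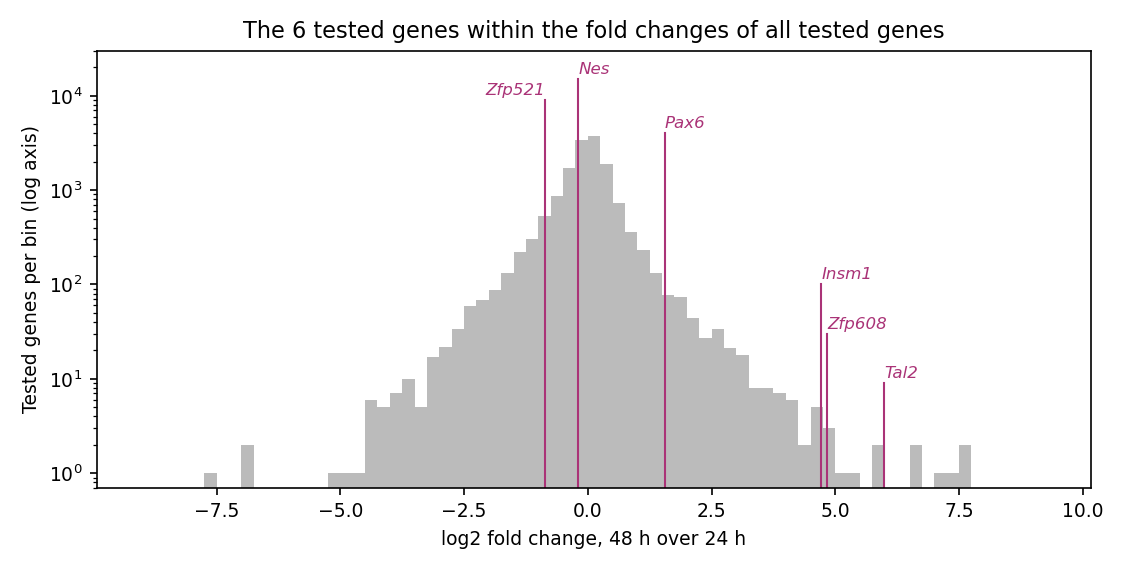
Histogram of the fitted log2 fold change (48 h over 24 h) of the 14889 tested genes, with the count per bin on a log axis; purple lines mark 6 of the described genes, and their heights carry no value. Tal2 (5.98), Zfp608 (4.84) and Insm1 (4.72) lie in the sparse upper end and Pax6 at 1.56. Nes (-0.19) lies near the centre and Zfp521 (-0.86) on the falling side.

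Levels were ordered between genes per length, as CPM per kb of merged exons. At 24 h Nes led with 4.20 ± 0.067 CPM per kb (SD, n = 3), followed by Zfp521 with 1.26 ± 0.0358 and Pax6 with 0.99 ± 0.0807. Insm1 stood at 0.214 ± 0.052, Tal2 at 0.08 ± 0.0211 and Zfp608 at 0.065 ± 0.0137. Tal2 and Zfp608 overlapped between libraries and are not ordered by these data. The other neighbours among those 6 genes did not overlap.

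At 48 h the order was different. Insm1 had 5.61 ± 0.174 CPM per kb (SD, n = 3) and Tal2 5.11 ± 0.381, with the lowest Insm1 library at 5.48 and the highest Tal2 library at 5.37, a gap smaller than the SD of Tal2. Nes followed with 3.67 ± 0.374, Pax6 with 2.90 ± 0.115, Zfp608 with 1.86 ± 0.0507 and Zfp521 with 0.694 ± 0.0745. Pax6 depends most on the length used, since its 26 annotated transcripts merge to 11694 bases while the longest has 4427. With the longest transcript, Pax6 stood at 2.61 CPM per kb at 24 h and 7.66 at 48 h, above Insm1 and Tal2, so its place in the order is set by that choice. Among the 14849 tested genes with an annotated length, Tal2 moved from percentile 1.69 to 53.8 of level per length and Insm1 from 7.03 to 55.7. Zfp608 moved from percentile 1.27 to 34.5, Pax6 from 23.8 to 42.6, Zfp521 from 27 to 20.6 and Nes from 48.8 to 47.2.

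**Figure D3:**
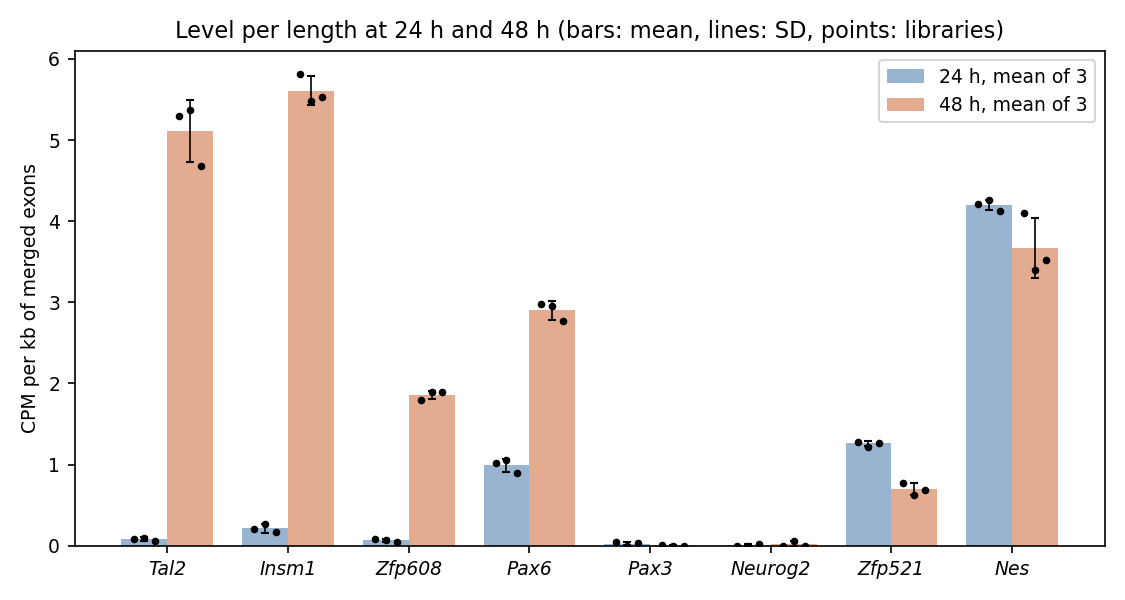
CPM per kb of merged exons for each gene at 24 h (blue) and 48 h (orange); bars are means of 3 libraries, lines the SD and points the single libraries. Insm1 (5.61) and Tal2 (5.11) have the highest bars at 48 h, whereas Nes (4.20) has the highest at 24 h.

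The genes with the most similar profile were found by the root mean square difference of centred log2 CPM over the 6 libraries, among the 9914 tested genes that averaged 5 CPM or more. The log2 CPM carry a prior count of 2, which narrows differences at low levels, so the order by this measure need not be that of the fitted fold changes. With only 24 h and 48 h libraries, the measure mainly compares the change between these times. Tal2, Insm1 and Zfp608 were included for large increases, so their closeness to each other and to other large increases is largely set by that choice. Fgf5, which encodes a growth factor of the formative epiblast, was nearest to both Insm1 (difference 0.081) and Zfp608 (0.095), and Insm1 and Zfp608 were second to each other (0.143). Enpp2 came next for both (0.200 and 0.156). Vrtn was nearest to Tal2 (0.191), at 1.92 CPM at 24 h and 75.8 CPM at 48 h, before Cxcl12 (0.418) and Zfp608 (0.469), although the fitted log2 change of Cxcl12 (5.77) is closer to that of Tal2 than the 5.32 of Vrtn. Pax6 was closest to Elmo1 (0.043), Bend3 (0.053) and Skil (0.053). Zfp521 was closest to Tmem184b (0.040), Capsl (0.042) and Mppe1 (0.049), and Nes to Rad9a (0.030), Rab24 (0.032) and Mrps26 (0.035).

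Paralogues, genes of the same family in the genome, were examined beside the 8 genes. Of 12 listed paralogues 5 were tested, and 3 rose and 1 fell (80% called, against 62.8% of all tested genes). Their median log2 change was 0.42, against -0.01 for all tested genes. Zfp609, the paralogue of Zfp608, rose from 93.1 ± 6.34 to 124 ± 1.54 CPM (SD, n = 3), with a fitted log2 change of 0.42 ± 0.04 (standard error; adjusted p = 7.76e-08). In the summed level per length of this pair, Zfp608 made up 0.57% ± 0.0866 at 24 h and 11% ± 0.354 at 48 h (SD, n = 3), so Zfp609 remained the main form. Zfp423, the paralogue of Zfp521, had 62.4 ± 2.94 and 58.2 ± 1 CPM, and the share of Zfp521 in that pair was 10.2% ± 0.665 at 24 h and 6.27% ± 0.638 at 48 h. The change of Zfp423 (log2 -0.10, adjusted p = 0.035) lost its call in 6 of 12 alternatives (adjusted p from 0.002 to 0.185), among them those without replicate 2 of 24 h (-0.06) and without replicate 1 (-0.10), 2 (-0.11) or 3 (-0.08) of 48 h.

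Tal1, the blood and endothelial paralogue of Tal2, had 10, 7 and 8 counts at 24 h and 16, 22 and 12 at 48 h. Its increase in log2 units, 0.95 ± 0.38 (standard error; adjusted p = 0.038) lost its call in 8 of 11 alternatives (adjusted p from 0.0263 to 0.182). These include the fits without replicate 2 (0.87) or 3 (0.84) of 24 h and without replicate 1 (0.97) or 2 (0.70) of 48 h. Lyl1 had at most 7 counts and Insm2 at most 1 count in a library. Of the Pax family, Pax8 rose from 7.68 ± 0.99 to 12.7 ± 0.857 CPM (SD, n = 3, log2 change 0.73, adjusted p = 7.34e-06). Pax5 was at 0.587 and 0.547 CPM (adjusted p = 0.819), and Pax1, Pax2, Pax4, Pax7 and Pax9 had at most 14 counts in a library and were not tested. Pax6 was thus the Pax gene with the most counts in every library, which is not corrected for length. Per kb of merged exons, Pax8 stood at 1.27 CPM at 24 h and 2.10 at 48 h, against 0.99 and 2.90 for Pax6.

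Most proneural and other bHLH genes, the class of Neurog2, were low at both times. Of 15 listed, 7 were tested, 3 rose, 3 fell and 1 did not pass (85.7% called, against 62.8% of all tested genes). The median was 0.69. Olig3 rose from 0.679 ± 0.155 to 2.30 ± 0.505 CPM (SD, n = 3, log2 change 1.76, adjusted p = 2.07e-05). Neurod1, clearly measurable at both times, rose from 5.16 ± 0.453 to 9.78 ± 1.54 CPM (0.92, adjusted p = 5.08e-06). Per kb of merged exons it stood at 1.89 CPM at 24 h and 3.58 at 48 h. Its counts were fractional, which shows that reads were divided between genes. Neurog3 rose by 1.04 on 9 to 26 counts per library (adjusted p = 0.0069), and Neurog1 had 3, 2 and 5 counts at 24 h and 1, 0 and 0 at 48 h. The 3 that fell averaged under 1 CPM. Olig1 had 13, 15 and 15 counts at 24 h and 4, 6 and 5 at 48 h (-1.54, adjusted p = 0.00326). The changes of Bhlhe22 (-1.01, adjusted p = 0.0214) and Atoh1 (-0.87, adjusted p = 0.0243) each lost their call in 5 of 11 alternatives (adjusted p from 0.0155 to 0.0939 and from 0.017 to 0.115). For Bhlhe22 these are DESeq2 (-1.01) and the fits without replicate 1 (-0.92) or 2 (-0.94) of 24 h and without replicate 1 (-0.96) or 2 (-0.87) of 48 h. For Atoh1 they are DESeq2 (-0.87) and the fits without replicate 1 (-0.85) or 3 (-0.86) of 24 h and without replicate 2 (-0.87) or 3 (-0.74) of 48 h.

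Factors of neural progenitors, the class of Pax6, moved both ways. Of 25 listed, 17 were tested, 9 rose and 8 fell (100% called, against 62.8% of all tested genes), with a median of 0.07. Irx3, a patterning homeobox gene, rose from 0.708 ± 0.119 to 8.32 ± 0.0158 CPM (SD, n = 3, log2 change 3.55, adjusted p = 4.05e-12). Sox3, a SoxB1 factor, rose from 5.17 ± 0.52 to 22.7 ± 1.1 CPM (2.14, adjusted p = 2.4e-12). Lhx2, a homeobox gene of forebrain and eye, fell from 2.29 ± 0.409 to 1.20 ± 0.254 CPM (-0.92, adjusted p = 0.0023).

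Neural crest and neural border factors, the class in which Pax3 belongs, moved both ways. Of 14 listed, 10 were tested, 2 rose, 4 fell and 4 did not pass, with a median of -0.41. The share called, 60%, was near the 62.8% of all tested genes. Foxd3, which is also a pluripotency factor, rose from 22.3 ± 0.698 to 47.2 ± 2.06 CPM (SD, n = 3, log2 change 1.08, adjusted p = 5.86e-12), and Twist1 rose by 0.73 (adjusted p = 0.00102). Tfap2c fell from 6.60 ± 0.101 to 1.55 ± 0.235 CPM (-2.09, adjusted p = 1.49e-09) and Tfap2a from 23.1 ± 0.978 to 13.3 ± 1.65 CPM (-0.80, adjusted p = 2.46e-07).

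Genes of neuronal differentiation gave no common direction. Of 25 listed, 17 were tested, 7 rose, 6 fell and 4 did not pass (76.5% called, against 62.8% of all tested genes). The median was 0.20. Dll1, a Notch ligand induced by proneural factors, rose from 3.24 ± 0.384 to 53.9 ± 1.13 CPM (SD, n = 3), with a fitted log2 change of 4.06 ± 0.07 (standard error; adjusted p = 4.29e-17). Elavl3, a neuronal RNA-binding protein gene, rose by 0.97 (adjusted p = 4.09e-06), with fractional counts. Mapt, which encodes tau, fell from 11.2 ± 1.66 to 2.04 ± 0.295 CPM (-2.46, adjusted p = 1.97e-10) and Ncam1 from 60.6 ± 1.65 to 35.8 ± 1.87 CPM (-0.76, adjusted p = 1.57e-10). Dcx, a gene of migrating neurons, had 0 counts in each 24 h library and 2 in each 48 h library, and the Notch target Hes5 had 1 count in all 6 libraries together.

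Intermediate filament genes were listed beside Nes. Of 12, 10 were tested, 2 rose, 4 fell and 4 did not pass, with a median of -0.07. The share called, 60%, was near the 62.8% of all tested genes. Ina, the neuronal filament gene encoding internexin, rose from 25.2 ± 0.939 to 89.8 ± 1.65 CPM (SD, n = 3, log2 change 1.83, adjusted p = 5.65e-16), and Nefh rose by 0.16 (adjusted p = 0.00131). Vim, which encodes vimentin, the assembly partner of nestin, fell from 116 ± 8.43 to 94.9 ± 1.44 CPM (-0.30, adjusted p = 8.59e-06). Per length, Nes made up 14.6% ± 1.07 of the Nes and Vim sum at 24 h and 15.5% ± 1.17 at 48 h (SD, n = 3), a difference smaller than the spread between libraries. Krt8, an epithelial keratin, fell from 20.6 ± 0.267 to 5.26 ± 0.541 CPM (-1.97, adjusted p = 5.08e-12). The change of Des, the muscle filament gene (log2 -0.38, adjusted p = 0.0155), lost its call in 4 of 12 alternatives (adjusted p from 0.00271 to 0.0817), among them those without replicate 2 of 24 h (-0.29) and without replicate 1 (-0.31) or 2 (-0.35) of 48 h. The change of Krt18, the keratin partner of Krt8 (log2 -0.34, adjusted p = 0.037), lost its call in 7 of 12 alternatives (adjusted p from 0.0163 to 0.171). These are DESeq2 (-0.33), the fit of every gene with a count (-0.34), and the fits without replicate 1 (-0.37), 2 (-0.30) or 3 (-0.35) of 24 h and without replicate 2 (-0.34) or 3 (-0.26) of 48 h. Nefl (0.21, adjusted p = 0.117), Nefm (0.23, adjusted p = 0.461), Synm (0.15, adjusted p = 0.139) and Prph (-0.34, adjusted p = 0.0918) did not pass. Gfap, the astrocyte filament gene, had 3 to 5 counts in a library, and Krt19 had 1 to 4.

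Among genes that hold neural genes back, more fell than rose. Of 9 listed, all 9 were tested, 2 rose, 6 fell and 1 did not pass, beside 30.9% higher and 31.9% lower over all tested genes. The median was -0.96. As this list was chosen with earlier results of these data known, its counts are a description only. Bcl6 fell from 5.68 ± 1 to 0.777 ± 0.244 CPM (SD, n = 3, log2 change -2.87, adjusted p = 4.42e-09). In neural progenitors Bcl6 is also known as a neurogenic factor that represses Notch targets. Hes1, a Notch target that represses proneural genes, fell from 15.8 ± 1.49 to 3.45 ± 0.23 CPM (-2.19, adjusted p = 1.6e-11). Id2, a bHLH antagonist, rose from 1.24 ± 0.12 to 4.97 ± 1.02 CPM (2.00, adjusted p = 9.52e-08), while Id1 fell from 2.16 ± 0.482 to 0.882 ± 0.251 CPM (adjusted p = 0.000422) and Id3 from 23.9 ± 0.681 to 12.3 ± 0.302 CPM (adjusted p = 1.41e-09). The change of Rcor1, a corepressor gene (log2 -0.11, adjusted p = 0.0273), lost its call in 4 of 12 alternatives (adjusted p from 0.00164 to 0.135), which are DESeq2 (-0.10) and the fits without replicate 1 of 24 h (-0.08) and without replicate 1 (-0.09) or 3 (-0.10) of 48 h.

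Rest encodes the repressor of neuronal genes outside neurons and was abundant at both times, with 400 ± 11.8 and 416 ± 3.28 CPM (SD, n = 3). Its log2 fold change of 0.05 (adjusted p = 0.0342) turned to -0.01 with library size as the only scaling. The call was also lost without replicate 1 (0.03) or 2 (0.05) of 24 h and without replicate 1 (0.05) or 2 (0.06) of 48 h, with adjusted p from 0.00695 to 0.821 over 12 alternatives.

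Over the 7 neural lists together, 75 of 112 genes were tested, 28 rose, 32 fell and 15 did not pass. Their median log2 fold change was -0.09, and 80% were called, against 62.8% of all tested genes. Nothing is read from this difference, because the lists were chosen with earlier results of these data known.

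**Figure D4:**
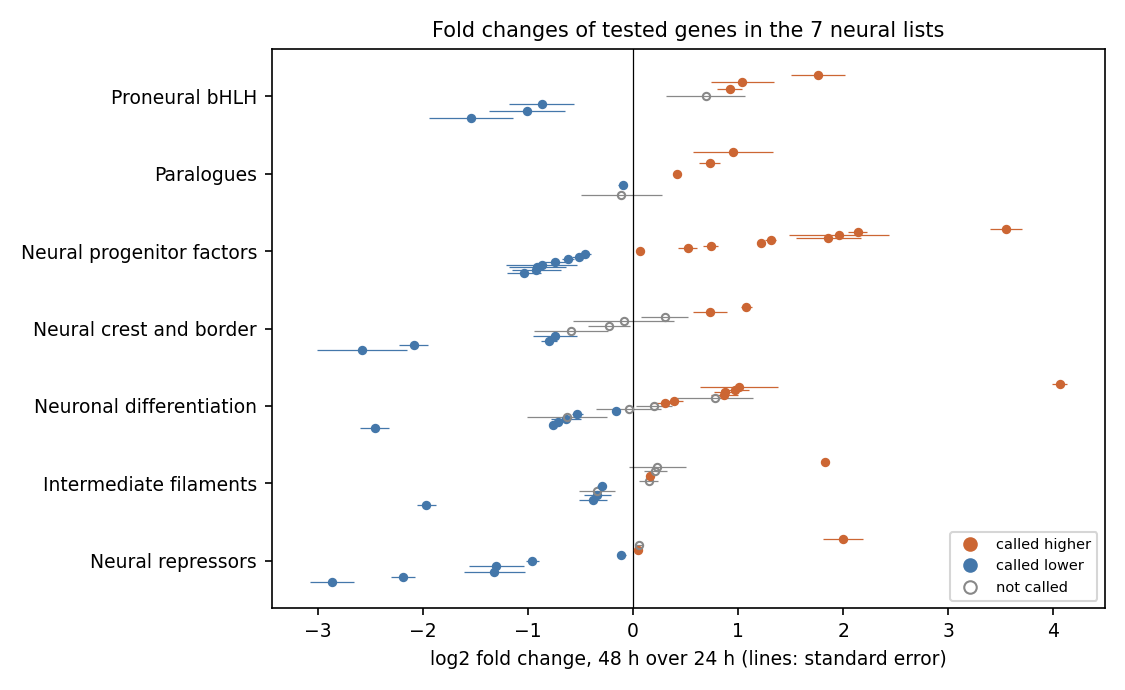
Fitted log2 fold change (48 h over 24 h) of each tested gene in the 7 neural lists, with lines for the standard error; orange points were called higher, blue points lower, and open grey points did not pass. Every list holds genes on both sides of 0, with Dll1 (4.06) and Irx3 (3.55) farthest to the right and Bcl6 (-2.87) farthest to the left.

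Genes next to the 8 on the chromosome were examined for changes of their own. Elp4 lies 3.7 kb beyond Pax6 and had 31.7 ± 0.979 CPM at 24 h and 33.3 ± 0.963 CPM at 48 h (SD, n = 3, log2 fold change 0.07, adjusted p = 0.172). Zgrf1, 15.1 kb from the near-silent Neurog2, had 52.2 ± 2.07 and 59.4 ± 2.77 CPM and rose by 0.18 (adjusted p = 0.00131), and Ap1ar, 171.4 kb on the other side, also rose by 0.18 (adjusted p = 0.000982). Pax6os1 and Gm4221, non-coding genes whose spans overlap Pax6 and Zfp608 on the opposite strand, had 0 counts in every library. Beside Insm1, Crnkl1 (286.9 kb) had a log2 change of 0.10 (adjusted p = 0.0131), which was not called without replicate 1 of 24 h (0.08) or with library size as the only scaling (0.04). Ralgapa2, 14.9 kb on the other side of Insm1, had one of 0.11 (adjusted p = 0.0596), which was called with RLE scaling (0.12) and without replicate 1 of 24 h (0.14) or replicate 1 of 48 h (0.15).

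The neighbours of the other genes lie farther off or are pseudogenes. Gramd3, 1407.8 kb from Zfp608, rose from 1.99 ± 0.397 to 11.3 ± 1.34 CPM (SD, n = 3, log2 change 2.52, adjusted p = 1.37e-10), and Csnk1g3, 932.5 kb on the other side, rose by 0.24 (adjusted p = 0.000109). Epha4, an ephrin receptor gene 586.2 kb from Pax3, fell from 111 ± 4.05 to 38.6 ± 1.54 CPM (-1.52, adjusted p = 4.75e-15), while Farsb, 220.8 kb on the other side, rose by 0.25 (adjusted p = 3.49e-07). Impact, 694.1 kb from Zfp521, rose by 0.19 (adjusted p = 4.52e-06), and the pseudogene Gm6457, 597.4 kb on the other side, did not pass (-0.31, adjusted p = 0.253). The pseudogenes Rps15a-ps8, 2.4 kb from Tal2 (-0.22, adjusted p = 0.0126), and Rpl10-ps1, 114.1 kb from Pax6 (-1.33, adjusted p = 0.021), have fractional counts and are uncertain. Rps15a-ps8 lost its call in 3 of 12 alternatives, without replicate 2 (-0.20) or 3 (-0.19) of 24 h and without replicate 3 of 48 h (-0.14). Rpl10-ps1 lost it in 4 of 11, without replicate 2 (-1.22) or 3 (-1.27) of 24 h, without replicate 2 of 48 h (-1.34) and in DESeq2 (-1.31).

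The genes on either side of Nes went in opposite directions. Crabp2, a retinoic acid binding protein gene 17.7 kb away, rose from 4.15 ± 0.515 to 28.9 ± 0.323 CPM (SD, n = 3), with a fitted log2 change of 2.79 ± 0.08 (standard error; adjusted p = 4.09e-14). Bcan, 7.1 kb on the other side, had 33, 45 and 58 counts at 24 h and 20, 27 and 37 at 48 h. Its log2 fold change of -0.73 (adjusted p = 0.0163) lost its call without replicate 3 of 24 h (-0.59), without replicate 1 of 48 h (-0.54) and in DESeq2 (-0.72), with adjusted p from 0.00512 to 0.0847 over 12 alternatives.

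In units of 1000000 estimated counts, the libraries held 19.6, 20.1 and 23.1 at 24 h and 22.1, 22.3 and 22.7 at 48 h. Markers of other cell types were low. Of 27 such genes 9 were tested, 1 was called higher (Dcn) and 4 lower, beside 30.9% higher and 31.9% lower over all tested genes. The 7 primitive endoderm markers summed to 9.36 to 11.1 CPM at 24 h and 5.67 to 6.44 CPM at 48 h, the 7 mesoderm markers to 15.9 to 18.7 and 12.9 to 14.9 CPM, and the 5 trophoblast markers to at most 1.19 CPM. The 8 fibroblast markers summed to 4.05 to 6.02 CPM at 24 h and 3.13 to 4.47 CPM at 48 h, with Lum and Postn at 0 in every library. The part of such cells in the values above was not tested.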

How the data were processed

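Messenger RNA of 6 libraries was compared, 3 after 24 h and 3 after 48 h of FGF2. The authors' deposited table holds expected counts (RSEM, per the table's name), 1 row per gene, not scaled for depth or length. The submitters' processing notes list RSEM 1.3.0, STAR 2.5.2, cutadapt 1.9.1 and build GRCm38. Annotation, strand use and filters are not given in the sources used here, so reads of overlapping opposite-strand genes cannot be told apart. In GENCODE M21 exons of these named genes overlap such a gene: Zfp608 among the 8 described, Neurod1, Neurog3, Olig1, Pax1, Pax5, Pax8, Pax9, Lyl1, Irx3, Lhx5, Rax, Tfap2a, Dll1, Hes5, Ncam1, Ina, Nefl, Nefm, Synm, Des, Krt8 and Bcl6 of the lists, Otx2, Pou3f1 and Pou5f1 of the markers, Elmo1, Enpp2, Mppe1, Mrps26, Rab24 and Rad9a of the similar profiles, and Ap1ar, Crnkl1, Farsb, Ralgapa2 and Zgrf1 of the neighbours. Exons of the marker Eomes also overlap an opposite-strand gene. Fractional counts, also seen for Dppa5a, Crnkl1, Csnk1g3 and Gm6457, show reads divided between genes. The 8 genes described had whole counts in every library.

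Symbols, lengths and positions came from GENCODE M21 (GRCm38), which named 51633 of 51912 identifiers, and promoters from RefSeq GRCm38.p6. Counts were rounded to whole numbers, filtered with filterByExpr (minimum count 10), scaled by TMM and tested with edgeR 4.0.16 (R 4.3.3) by the quasi-likelihood test, with Benjamini-Hochberg adjustment over 14889 genes and a threshold of 0.05. "Rose" and "fell" are used for genes that passed it. Standard errors are the fold change divided by the square root of F. The genes described and the lists were chosen with earlier results of these data known. Of each list, the text names the 2 largest increases and the 2 largest decreases among called genes averaging 1 CPM or more, the paralogues and filament genes whatever their change, and for each gene described its nearest tested neighbours and the 3 most similar profiles. A few list members and neighbouring genes are not reported here; the list counts include them. Hes5, Dcx, Id1, Id3, Rcor1, Olig1, Bhlhe22, Atoh1, Dcn, Eomes and the pluripotency markers were named after their values were seen. On simulated counts in which 200 of 14889 genes were changed at least 2-fold, the test recovered 92% and called 192 genes, 4.17% of them unchanged. In the data 62.8% of tested genes were called, many with smaller changes. These rates therefore need not hold for the data. Alternatives were RLE and library-size scaling, 2 other filters, DESeq2 1.42.0, a replicate block, a prior count of 1, longest transcripts as lengths, and leaving out each library.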

Additional observations from a re-analysis of the deposited data

How the results depend on the processing

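The count of changed genes (9345) lay between 7986 (DESeq2) and 9792 (every gene with a count tested), and between 8737 and 8904 without 1 library. Of the listed neural genes, 23 to 29 were called higher and 25 to 33 lower over the 12 alternatives, against 28 and 32. With library size as the only scaling they were 24 and 33, and the median over all tested genes went from -0.01 to -0.07. Of the 75 listed genes tested, 58 kept their call in every alternative that tested them. The replicate block called 9235 genes in all, with 27 listed genes higher and 32 lower, and it changed the call of none of the 6 tested genes described. Libraries of the same number deviated from their group means with correlations of -0.046, -0.043 and -0.009 across genes. No shared deviation was thus visible, but whether equal numbers mark pairs is not known.

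The log2 fold changes of the 6 genes kept their sign in every alternative that tested them. They ranged from 5.76 to 6.16 for Tal2, 4.54 to 4.91 for Insm1, 4.66 to 4.97 for Zfp608, 1.48 to 1.60 for Pax6, -0.94 to -0.78 for Zfp521 and -0.28 to -0.14 for Nes. Tal2 was lowest with a prior count of 1, which pulls folds of low counts toward 0, and was not tested with at least 10 counts required in every sample. Length by the longest transcript gave Zfp608 0.0908 and 2.60 CPM per kb at 24 h and 48 h. Depth limits Pax3 and Neurog2, which entered a test only without the filter on low counts and were not called there.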

Other observations

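Dcn, the gene of the proteoglycan decorin, was in the fibroblast marker list and was singled out after its values were seen. It had 0 counts in each 24 h library and 23, 25 and 32 counts at 48 h. Against a floor of 3 counts over the 24 h group it was at least 26-fold higher at 48 h (adjusted p = 7.05e-07). Of the other genes of that list, the 2 that were called fell: Col1a1 had 16, 21 and 30 counts at 24 h and 4, 9 and 7 at 48 h, and Pdgfrb went from 2.06 ± 0.58 to 0.593 ± 0.0418 CPM (SD, n = 3).

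Some listed neural genes too low to test also had separate groups, with their values given here after being seen. Lhx5 had 1, 2 and 3 counts at 24 h and 7, 9 and 14 at 48 h. Rax had 3, 4 and 8 counts at 24 h and 0, 2 and 2 at 48 h.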
